A study of Mus musculus with 4 samples.

Results

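H3K27me2 peaks were examined at 42 genes that are active in the growing oocyte or whose products the egg hands to the embryo. The genes are a fixed list of symbols, found by their Entrez identifier among 21521 protein-coding genes on chromosomes 1 to 19 and X of the mouse. A peak belonged to a gene when the authors' annotation assigned it to that gene, which is the gene with the nearest transcription start site. By this rule 17 of the 42 genes had a peak in at least 1 of the 4 peak lists and 25 had none. The lists held 58 peaks of these genes, 13 among the 15350 maternal and 45 among the 40686 paternal peaks. A number of peaks is not a level of the mark, and the study reports a lower H3K27me2 level on the paternal than on the maternal genome. When each list was reduced to its 5744 peaks of largest fold, the maternal lists held 3 (Ezh2m+/p+) and 7 (Ezh2m-/p+) peaks of the 42 genes. The paternal lists then held 7 and 6. The maternal number was thus slightly the higher in Ezh2m-/p+ zygotes, and whether this held for all genes was not examined.

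The samples were PN5 zygotes, which are 1-cell embryos with both pronuclei fully formed, collected without their polar body. Eggs of C57BL/6J mothers had been fertilized in vitro by PWK/PhJ sperm, so that a read over a variant between the strains could be given to the maternal or the paternal genome. Mothers of both groups carried floxed Ezh2 alleles, and the label of the control zygotes is Ezh2m+/p+. Mothers of the Ezh2m-/p+ zygotes also carried Gdf9-Cre, in which the promoter of Gdf9, itself 1 of the 42 genes, drives the recombinase in oocytes. The fathers' Ezh2 was intact in both groups. Each genotype had 1 H3K27me2 library from pooled zygotes and 1 input library without antibody. The mothers were young adults by the study's methods. With a single library per genotype, differences between genotypes cannot be set against replicate spread and were not tested. The peak lists are labelled WT and EZH2 and were taken as Ezh2m+/p+ and Ezh2m-/p+ from those labels. The study is divided on this point. The peak numbers it tabulates for each genotype are those of the lists so labelled, whereas the annotation shares it draws for each genotype are those of the lists with the opposite label. A swap of the labels would turn every direction between genotypes given here. It would also move each comparison of maternal with paternal peaks to the other genotype, with its direction kept.

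H3K27me2 is the dimethylated form of lysine 27 of histone H3. Polycomb repressive complex 2, with EZH2 or EZH1 as its enzyme, writes it, and it is known as a mark of chromatin where transcription is low. Oocyte genes are transcribed while the oocyte grows, and most of them are not transcribed again in the zygote, which lives on stored maternal RNA and protein. The 42 genes cover the egg coat, secreted ligands, the subcortical maternal complex, transcription factors of the follicle, regulators of meiosis and RNA-binding proteins of the germline.

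RefSeq promoter windows, which run from 250 bases before to 50 bases after a transcription start on GRCm38.p6, were found for 32 of the 42 genes. A listed peak overlapped 4 of their 37 windows (10.8%; all windows 7.64%), each of another gene. Zp2 and Npm2, whose starts also lay under a peak, were not among the 32 genes. The windows are printed 5′ to 3′ along the gene, with each CpG dinucleotide in capitals, because the promoters that carried a peak differed widely in CpG number. The window of Padi6 was at chr4:140742594-140742893 (minus strand), that of Uchl1 at chr5:66675871-66676170 (plus strand), that of Ddx4 at chr13:112652261-112652560 (minus strand) and that of Dazl at chr17:50293571-50293870 (minus strand).
Padi6: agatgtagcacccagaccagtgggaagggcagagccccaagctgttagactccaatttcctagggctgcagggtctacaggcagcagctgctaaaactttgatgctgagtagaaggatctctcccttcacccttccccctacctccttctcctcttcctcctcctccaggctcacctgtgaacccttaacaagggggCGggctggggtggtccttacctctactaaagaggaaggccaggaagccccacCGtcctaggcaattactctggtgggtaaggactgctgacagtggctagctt
Uchl1: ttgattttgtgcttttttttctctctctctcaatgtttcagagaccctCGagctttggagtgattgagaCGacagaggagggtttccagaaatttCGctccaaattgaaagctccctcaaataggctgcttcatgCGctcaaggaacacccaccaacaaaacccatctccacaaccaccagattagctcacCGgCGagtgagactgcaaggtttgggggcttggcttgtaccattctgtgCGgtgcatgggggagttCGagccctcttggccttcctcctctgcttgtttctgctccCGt
Ddx4: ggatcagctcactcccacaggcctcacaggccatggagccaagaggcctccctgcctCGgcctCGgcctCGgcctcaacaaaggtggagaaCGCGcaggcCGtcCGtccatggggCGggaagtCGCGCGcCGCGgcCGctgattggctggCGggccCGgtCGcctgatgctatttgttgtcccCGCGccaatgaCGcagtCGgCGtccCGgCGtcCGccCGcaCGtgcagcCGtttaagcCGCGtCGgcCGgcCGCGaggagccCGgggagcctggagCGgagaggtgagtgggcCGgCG
Dazl: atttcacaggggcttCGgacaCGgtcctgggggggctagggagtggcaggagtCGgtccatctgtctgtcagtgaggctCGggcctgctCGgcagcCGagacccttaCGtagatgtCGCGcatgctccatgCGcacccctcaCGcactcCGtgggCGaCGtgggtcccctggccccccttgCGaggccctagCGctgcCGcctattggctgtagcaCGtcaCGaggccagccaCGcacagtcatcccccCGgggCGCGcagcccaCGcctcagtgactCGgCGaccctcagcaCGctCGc

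The Padi6 window held 2 CpG and lay wholly inside a paternal peak of both genotypes. The Uchl1 window held 9 CpG and lay inside an Ezh2m+/p+ paternal peak. Ddx4 had 38 CpG in its window, a number that 4.95% of all 32851 windows reached, and an Ezh2m-/p+ maternal peak covered it entirely. Dazl had 28 CpG, reached by 14.2% of all windows, and an Ezh2m-/p+ paternal peak overlapped the last 29 bases. The median over all windows was 7 CpG, and over the 37 windows of the oocyte genes it was 5. E-boxes (CANNTG, which reads the same on both strands), the sequence that FIGLA and other basic helix-loop-helix factors bind, were found in 86.5% of the oocyte windows and in 72.3% of all windows. Such a match is only a description of the sequence.

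The only maternal stretch listed at an oocyte gene in both genotypes lay at Fbxo43, at chr15:36168001-36169599 (1599 bp, 44.9% GC, 6 CpG). Its middle 300 bases, chr15:36168651-36168950 on the plus strand, are shown for comparison with the promoters and held 1 CpG, in capitals.
Fbxo43: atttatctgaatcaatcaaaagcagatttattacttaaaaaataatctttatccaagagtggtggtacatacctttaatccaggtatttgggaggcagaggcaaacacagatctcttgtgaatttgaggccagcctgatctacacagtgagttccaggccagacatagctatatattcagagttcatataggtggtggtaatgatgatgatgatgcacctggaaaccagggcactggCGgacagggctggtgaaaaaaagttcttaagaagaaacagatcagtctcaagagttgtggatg

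The lists held 5744 maternal and 17863 paternal peaks in Ezh2m+/p+ zygotes, and 9606 and 22823 in Ezh2m-/p+ zygotes. The value of a peak is its fold, the ratio of H3K27me2 to input reads that the authors' peak caller computed. Folds took few distinct values, 471 in the Ezh2m+/p+ paternal and 957 in the Ezh2m-/p+ paternal list, and the commonest of them, 36.1 and 63.0, were shared by 18.8% and 10.8% of the peaks. Median folds were 7.37 and 36.1 in the Ezh2m+/p+ maternal and paternal lists, and 23.7 and 15.8 in the Ezh2m-/p+ lists. Folds are therefore read within a list, as a percentile of that list. On the 17 chromosomes that carry the 42 genes, reads covered between 13.1% and 33.3% of a chromosome in the maternal and between 1.13% and 4.03% in the paternal genome in the Ezh2m+/p+ group. The ranges for Ezh2m-/p+ zygotes were 20.8% to 45.1% and 1.89% to 5.47%. The study reports shallower sequencing for Ezh2m-/p+ than for Ezh2m+/p+ zygotes, in the H3K27me2 and the input libraries alike. The parts of depth and coverage in the peak numbers and folds were not tested.

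The share of oocyte genes with a peak was close to that of all genes in 3 of the 4 lists. In Ezh2m+/p+ zygotes a maternal peak was assigned to 3 of the 42 genes (7.14%), against 14.7% of all protein-coding genes, and a paternal peak to 8 genes, against 20.4%. In Ezh2m-/p+ zygotes 10 genes (23.8%) had a maternal peak, against 21.2%, and 11 (26.2%) had a paternal peak, against 23.9%. With peaks over 2000 bp alone, each maternal list had 2 of the 42 genes, against 12.2% (Ezh2m+/p+) and 13.4% (Ezh2m-/p+) of all genes, so the gap between the genotypes narrowed for all genes too. In lists of equal size the paternal genes numbered 5 under Ezh2m+/p+ (all genes 10.7%) and 4 under Ezh2m-/p+ (all genes 11.0%). Over the 4 lists together, 40.5% of the oocyte genes and 45.6% of all genes had a peak. Among the full lists, the Ezh2m+/p+ maternal list was the one in which the share of the oocyte genes was farthest below that of all genes. With peaks over 2000 bp the share was farther below in the Ezh2m-/p+ maternal (4.76% against 13.4%) than in the Ezh2m+/p+ maternal list (4.76% against 12.2%).

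**Figure D1:**
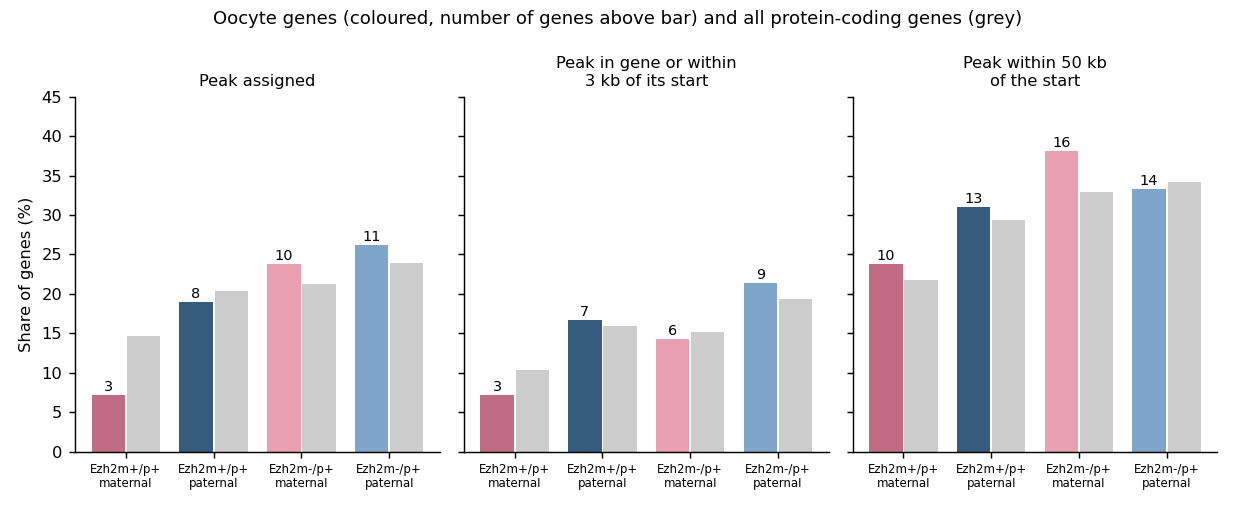
Share of genes (%) with a peak in each of the 4 lists under 3 definitions, for the 42 oocyte genes (coloured bars, number of genes above each) and for all 21521 protein-coding genes (grey). By assignment the Ezh2m+/p+ maternal list has 3 genes (7.14%) beside 14.7% of all genes, while within 50 kb of the start the oocyte genes are the higher in both maternal lists (23.8% and 38.1% beside 21.8% and 32.9%); there is 1 library per genotype and no error bar.

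By position, the gap in the Ezh2m+/p+ maternal list was smaller or turned. A peak in the gene or within 3 kb of its start was listed for 3 oocyte genes in the Ezh2m+/p+ maternal list (7.14%; all genes 10.3%) and for 7 in the paternal list (16.7%; all genes 15.9%). The Ezh2m-/p+ lists had 6 for the maternal (14.3%; all genes 15.2%) and 9 for the paternal list (21.4%; all genes 19.4%). Within 50 kb of the start, 10 oocyte genes had an Ezh2m+/p+ maternal peak (23.8%; all genes 21.8%) and 13 a paternal peak (31.0%; all genes 29.3%). Under Ezh2m-/p+ there were 16 (38.1%; all genes 32.9%) and 14 (33.3%; all genes 34.2%). The oocyte genes were shorter than most, with a median length of 12684 bp against 17375 bp for all protein-coding genes, and those with a peak were longer than those without in each list (21828 against 7825 bp in the Ezh2m+/p+ paternal list), as held for all genes (30664 against 15401 bp in that list).

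Few oocyte genes had peaks in both parental genomes of Ezh2m+/p+ zygotes, and more had them in Ezh2m-/p+ zygotes. In Ezh2m+/p+ zygotes Ddx4 was the 1 gene with a peak in both genomes (2.38%; all genes 4.00%). Ezh2m-/p+ zygotes had 5 such genes, Kit, Cpeb1, Ddx4, Dazl and Plat (11.9%; all genes 6.11%), out of 10 with a maternal peak. A maternal and a paternal peak of the same gene overlapped in 0 of these oocyte genes, against 2.33% of all genes with peaks in both genomes under Ezh2m+/p+ and 2.59% under Ezh2m-/p+, so overlap was rare in the lists as a whole. Zp2, Padi6, Npm2 and Sohlh2 had peaks in the paternal genome of both genotypes and in neither maternal list (4 of 42 genes; all genes 11.5%). Fbxo43 had the reverse pattern (1 gene; all genes 5.53%).

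All 8 genes with an Ezh2m+/p+ paternal peak also had an Ezh2m-/p+ paternal peak, as did 86.8% of all genes with such a peak. Conversely, 8 of the 11 genes of the Ezh2m-/p+ paternal list were in the Ezh2m+/p+ paternal list (72.7%; all genes 74.0%). Cpeb1, Nlrp4f and Uchl1 were the genes with a peak assigned in the Ezh2m-/p+ paternal list alone of the pair. In the maternal genome, Fbxo43 and Ddx4 were shared, 2 of 3 genes of the Ezh2m+/p+ list (66.7%; all genes 57.8%) and 2 of 10 of the Ezh2m-/p+ list (all genes 40.1%). Ooep, Dppa3, Nobox, Lhx8, Kit, Cpeb1, Dazl and Plat had a maternal peak in Ezh2m-/p+ zygotes and none in Ezh2m+/p+ zygotes, while Astl had one in Ezh2m+/p+ zygotes alone.

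**Figure D2:**
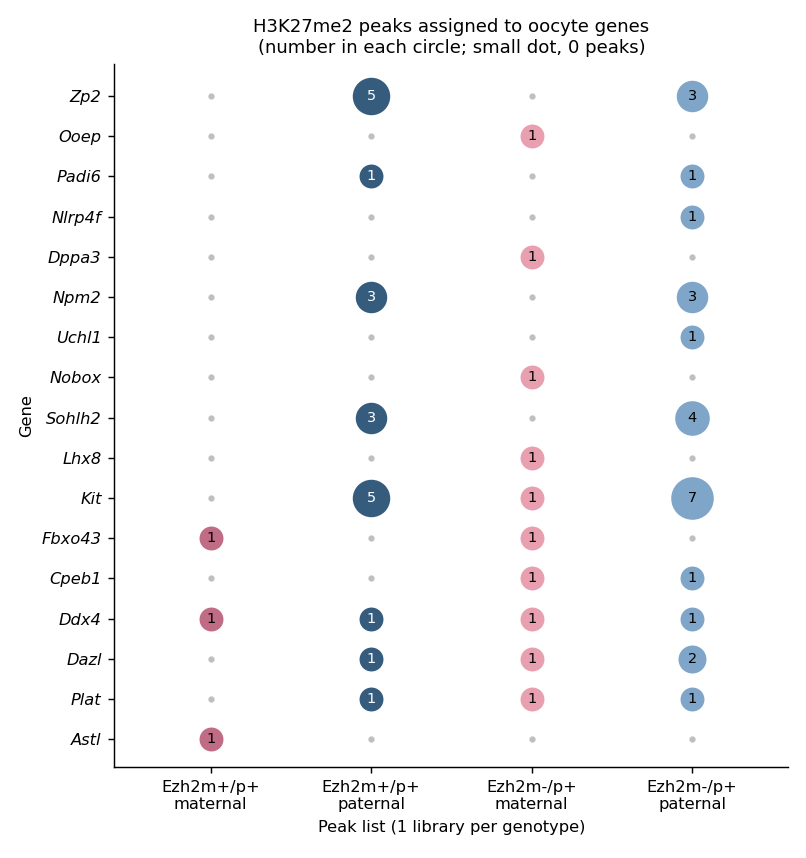
Number of H3K27me2 peaks assigned to each of the 17 oocyte genes with a peak (rows), by list (columns), with the number inside each circle and a small dot for 0 peaks. Kit had the most peaks (5 and 7 in the paternal lists), Ddx4 had 1 in every list, and the other 25 genes, which are not drawn, had 0 in all 4 lists.

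Zp1, Zp2 and Zp3 encode glycoproteins of the zona pellucida, the coat of the egg to which sperm bind. Zp2 (chr7:120126762-120145291, minus strand) had 5 paternal peaks in the Ezh2m+/p+ list and 3 in the Ezh2m-/p+ list. The nearest maternal peaks lay 760 kb and 949 kb from its start. Peaks covered 45.8% of the gene in the Ezh2m+/p+ paternal list, where 1.91% of all genes reached that share, and 73.0% in the Ezh2m-/p+ paternal list, where 1.58% did. The latter share includes part of a peak of 13399 bp at the 3' end that was assigned to Tmem159. A peak at chr7:120144201-120148799, which spans the start site, was listed with the same borders in both genotypes. Its fold of 289 was at percentile 99.8 of the Ezh2m+/p+ paternal list, and its fold of 8.54 at percentile 21.4 of the Ezh2m-/p+ list. The next peak inward, at chr7:120141601-120143399, was the other way round, with a fold of 7.52 (percentile 7.14) in Ezh2m+/p+ and, at chr7:120141201-120143399, of 142 (percentile 95.2) in Ezh2m-/p+ zygotes. The remaining 3 Ezh2m+/p+ peaks lay farther in, at chr7:120138201-120139599 (fold 84.3, percentile 87.5), chr7:120131201-120134399 (fold 169, percentile 98.3) and chr7:120129201-120130199 (fold 36.1, percentile 44.1). The first pair of these lay under 1 Ezh2m-/p+ peak of 9199 bp, at chr7:120130401-120139599 (fold 30.2, percentile 61.5), which did not reach the last. Zp1 and Zp3 had no peak assigned, and the nearest peak to their starts lay 29.8 kb away (Zp1, Ezh2m+/p+ maternal) and 38.7 kb away (Zp3, Ezh2m-/p+ paternal).

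Gdf9 and Bmp15 encode the growth factors by which the oocyte signals to the granulosa cells around it. Neither had a peak assigned in any list. The peak nearest to the Gdf9 start was 13.0 kb away in the Ezh2m-/p+ maternal list and 68.2 kb away in the Ezh2m+/p+ maternal list, and in the paternal lists it was over 3 Mb away (3522 kb and 3513 kb). Bmp15 lies on the X chromosome, as does Ccnb3, a meiotic cyclin gene that also had no peak. The peaks nearest to the Bmp15 start were 1804 kb and 2912 kb away in the maternal lists of Ezh2m+/p+ and Ezh2m-/p+ zygotes, and 44780 kb and 25415 kb away in the paternal lists. Reads covered 13.1% and 20.8% of the X chromosome in the maternal and 1.13% and 1.89% in the paternal genome, the lowest values of the chromosomes with oocyte genes.

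Padi6, Nlrp5, Ooep, Tle6 and Khdc3 encode the subcortical maternal complex, a protein assembly under the egg's membrane that cleavage of the embryo requires, and the other NLRP genes here are relatives of Nlrp5. Of these 9 genes Padi6, Ooep and Nlrp4f had a peak. Padi6 (chr4:140727355-140742643, minus strand) lay almost entirely within 1 Ezh2m+/p+ paternal peak, at chr4:140728601-140754399 and 25799 bp long, the longest peak of any of the 42 genes (fold 11.7, percentile 20.3). Together with a neighbouring peak assigned to Rcc2, 94.8% of the gene was covered, and 0.348% of all genes reached that share. In Ezh2m-/p+ zygotes the assigned peak was short, at chr4:140728801-140731199 (fold 7.27, percentile 10.5). The start of the gene was covered there by a peak of 27599 bp assigned to Padi4, at chr4:140733201-140760799 (fold 12.5), and the end of a peak of 37599 bp assigned to Rcc2 reached into the gene from the other side. Together these peaks covered 80.4% of Padi6. The nearest maternal peaks lay 523 kb (Ezh2m+/p+) and 271 kb (Ezh2m-/p+) from its start.

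Ooep had 1 Ezh2m-/p+ maternal peak, at chr9:78383801-78388399, whose nearer edge lay 5213 bp upstream of the start (fold 7.94, percentile 22.1). Nlrp4f had 1 Ezh2m-/p+ paternal peak at its 3' end, at chr13:65176401-65178199 (fold 5.91, percentile 3.75), a fold close to the lowest of that list, 5.01. Nlrp5, Tle6, Khdc3, Nlrp2, Nlrp9b and Nlrp14 had none. Among these, Nlrp14 had no peak within 50 kb in any list, while a peak lay within 50 kb of Tle6 in both maternal lists and of Khdc3 in both paternal lists.

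Dppa3, Npm2, H1foo, Zar1, Zar1l and Uchl1 are maternal-effect genes or encode abundant proteins of the egg. NPM2 is a histone chaperone that helps to organise the nucleus of the zygote, and DPPA3 (also called STELLA) protects the maternal genome from loss of DNA methylation. Npm2 (chr14:70647296-70661802, minus strand) had 3 paternal peaks in each genotype and no maternal peak. In Ezh2m+/p+ zygotes the peaks lay at chr14:70643001-70653599 (fold 8.78), chr14:70654601-70655999 (fold 6.77) and, over the start site, chr14:70657801-70661999 (fold 120, percentile 95.2), and they covered 80.7% of the gene. In Ezh2m-/p+ zygotes the peak at chr14:70655001-70659399 had a fold of 8.87 (percentile 22.7), and 2 further peaks lay upstream of the gene. With a peak of 14799 bp assigned to Fgf17, the paternal peaks of this genotype covered 75.2% of Npm2.

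Dppa3 (chr6:122626424-122630271) had 1 peak, in the Ezh2m-/p+ maternal list, at chr6:122627801-122629199 (fold 22.2, percentile 42.5). It covered 36.4% of this short gene, a share that 0.376% of all genes reached in that list. Uchl1, which encodes a ubiquitin hydrolase abundant in oocytes, had 1 Ezh2m-/p+ paternal peak 21.5 kb from its start, at chr5:66697601-66699599 (fold 63.0). An Ezh2m+/p+ paternal peak of 999 bp covered the Uchl1 start itself, at chr5:66675601-66676599 (fold 48.1), but was assigned to the antisense gene Uchl1os. H1foo (the oocyte linker histone, H1f8 in RefSeq), Zar1 and Zar1l, which encode RNA-binding regulators of maternal mRNA, had no peak assigned.

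Figla, Nobox, Sohlh1, Sohlh2 and Lhx8 encode the transcription factors that switch on the oocyte programme as follicles form. Sohlh2 (chr3:55182044-55209957, plus strand) had paternal peaks in both genotypes, 3 under Ezh2m+/p+ and 4 under Ezh2m-/p+, and all lay inside the gene. The first 3 overlapped between the genotypes. The first, 757 bp inside the start, had a fold of 108 in Ezh2m+/p+ (percentile 93.5) and of 7.88 in Ezh2m-/p+ zygotes (percentile 15.9). The second had folds of 36.1 (percentile 44.1) and 7.88 (percentile 15.9), and the third of 36.1 (percentile 44.1) and 63.0 (percentile 69.8). The fourth, at chr3:55206201-55208599, was listed in Ezh2m-/p+ zygotes with a fold of 78.8. Lhx8 had 1 Ezh2m-/p+ maternal peak past its 3' end, at chr3:154294601-154298599 (fold 40.5, percentile 93.4). Nobox had 1 in the same list, 53.1 kb from its start and inside an intron of another gene (chr6:43363201-43364999, fold 21.4). Figla and Sohlh1 had none, and the peak nearest to the Figla start was 107 kb away.

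**Figure D3:**
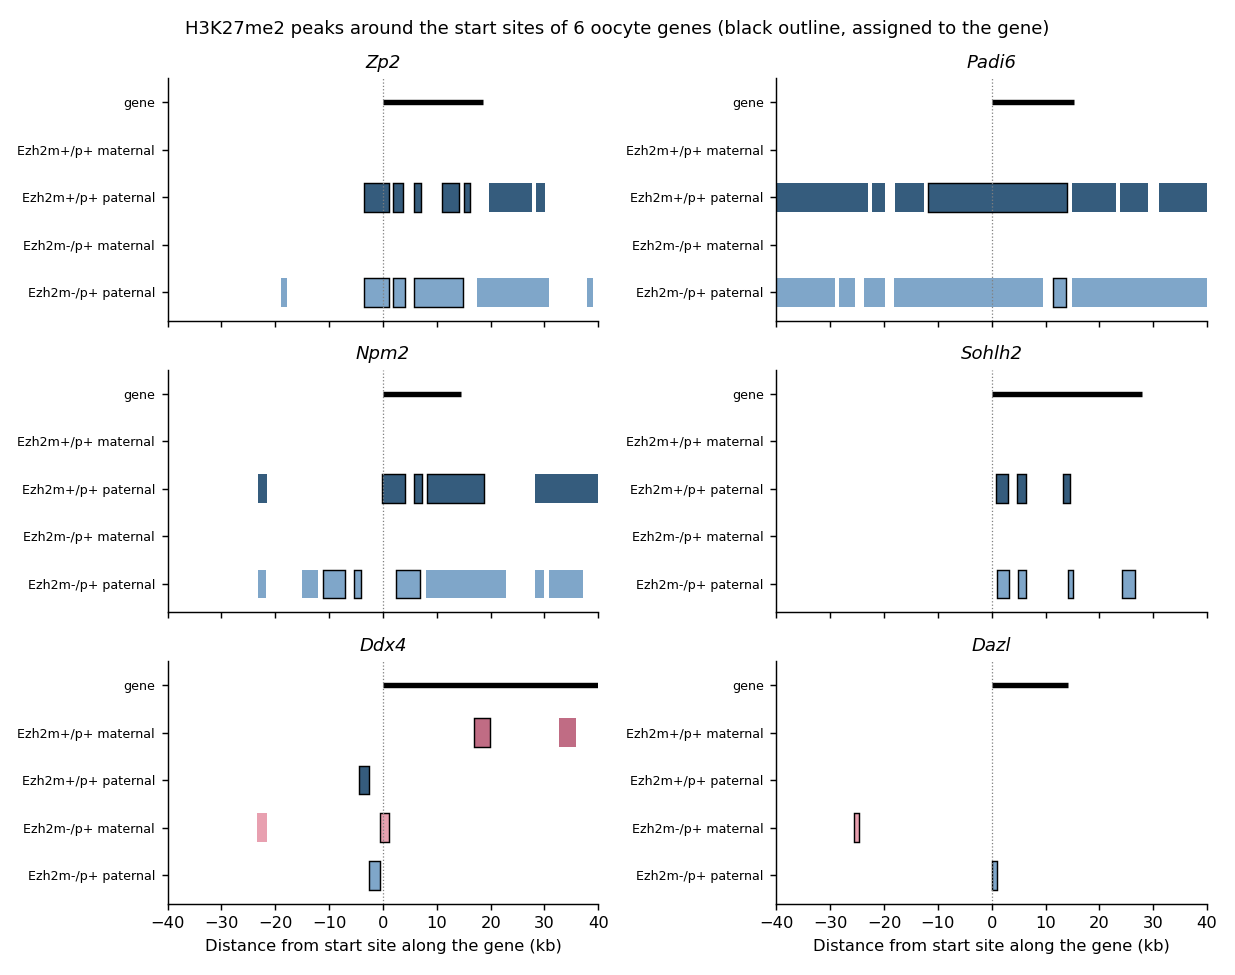
H3K27me2 peaks within 40 kb of the start sites of Zp2, Padi6, Npm2, Sohlh2, Ddx4 and Dazl, drawn to scale as distance along the gene in kb, with 1 row per list and the gene as a black bar. Peaks assigned to the gene are outlined. The maternal rows of Zp2, Padi6, Npm2 and Sohlh2 are empty, whereas the paternal rows hold 7, 7, 5 and 3 peaks for Ezh2m+/p+ and 6, 6, 8 and 4 for Ezh2m-/p+.

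Kit encodes the receptor for Kit ligand, which the oocyte carries on its surface and needs for growth. The lists had 5 Ezh2m+/p+ and 7 Ezh2m-/p+ paternal peaks of Kit, and all 12 were outside the gene (chr5:75574987-75656722). The nearest of them lay 41.0 kb (Ezh2m+/p+) and 31.0 kb (Ezh2m-/p+) upstream of the start. A far peak at chr5:75796201-75798599 had a fold of 132 in Ezh2m+/p+ (percentile 96.4) and overlapped an Ezh2m-/p+ peak with a fold of 10.7 (percentile 32.9). The single maternal peak of Kit, in Ezh2m-/p+ zygotes, was the one inside the gene, in intron 7 of 20 at chr5:75623401-75625399 (fold 26.0).

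Mos, Ccnb3, Fbxo43, Wee2 and Btg4 act in the arrest and resumption of meiosis and in the clearance of maternal mRNA. Fbxo43 encodes EMI2, which holds the egg at metaphase II. Fbxo43 (chr15:36150060-36169940, minus strand) was the 1 gene of the 5 with a peak, and it was listed in both maternal lists with a common left border. The Ezh2m+/p+ peak was 1599 bp long with a fold of 34.8 (percentile 70.6), and the Ezh2m-/p+ peak, at chr15:36168001-36169799, was 1799 bp long with a fold of 35.9 (percentile 88.8). They ended 341 bp and 141 bp inside the RefSeq start, whereas the authors' annotation measures from another start and places both upstream of it. The nearest paternal peaks lay 276 kb and 931 kb away.

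Ddx4, Dazl, Cpeb1 and Ybx2 encode RNA-binding proteins of the germline. DDX4 (also called VASA) is an RNA helicase of germ cells, DAZL promotes translation of stored mRNA, and CPEB1 controls polyadenylation of maternal mRNA. Ddx4 (chr13:112598333-112652633, minus strand) was the 1 gene with a peak in every list, each time at another place. The Ezh2m+/p+ maternal peak was in exon 5 of 21, at chr13:112632801-112635799 (fold 46.9, percentile 90.2). The Ezh2m-/p+ maternal peak covered the CpG-rich start printed above, at chr13:112651601-112653199 (fold 25.2, percentile 58.3). The paternal peaks lay upstream, at chr13:112655201-112656999 in Ezh2m+/p+ (fold 36.1, percentile 44.1) and at chr13:112653201-112655199 in Ezh2m-/p+ zygotes (fold 19.7, percentile 55.5), side by side without overlap. In the Ezh2m+/p+ maternal list 2 more peaks lay in the gene, both assigned to Il31ra, and the 3 together covered 15.8% of Ddx4.

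Dazl (chr17:50279393-50293620, minus strand) had an Ezh2m-/p+ paternal peak at its start, at chr17:50292601-50293599 (fold 63.0, percentile 69.8). The other peaks of Dazl were remote. An Ezh2m-/p+ maternal peak lay 24.6 kb upstream (fold 19.9), and paternal peaks 61.2 kb upstream in Ezh2m+/p+ (fold 36.1, percentile 44.1) and at chr17:50356401-50357999 in Ezh2m-/p+ zygotes (fold 63.0, percentile 69.8) did not overlap. Cpeb1, the longest of the 42 genes at 110976 bp, had an Ezh2m-/p+ maternal peak in intron 2 of 11 (fold 29.1) and an Ezh2m-/p+ paternal peak at an inner promoter (fold 63.0), and none in Ezh2m+/p+ zygotes. Ybx2 had none assigned.

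Plat, Astl, Oosp1, Oog1, Omt2a, Omt2b and Bcl2l10 are further genes with high transcript levels in the oocyte. Plat encodes tissue plasminogen activator, whose stored mRNA is translated as meiosis resumes. Its paternal peaks began at the same base in both genotypes, chr8:22760401-22762399 in Ezh2m+/p+ (fold 84.3, percentile 87.5) and chr8:22760401-22762999 in Ezh2m-/p+ zygotes (fold 8.21, percentile 20.6). An Ezh2m-/p+ maternal peak lay in an exon 16.5 kb from the start (fold 22.9). Astl encodes ovastacin, the protease that cleaves ZP2 after fertilization, and had 1 Ezh2m+/p+ maternal peak at chr2:127343001-127346199 (fold 6.03, percentile 33.0), which covered 16.8% of the gene. The other 5 genes had none. The authors kept only reads that mapped with high quality, which drops reads from near-identical copies, and Oog1, Omt2a, Omt2b and the NLRP genes have close relatives. The part of this filter in their peak counts was not tested.

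Of the 25 genes with no peak assigned, 12 also had none within 50 kb of the start in any list. These were Bmp15, Nlrp14, Zar1, Zar1l, Figla, Mos, Ccnb3, Wee2, Btg4, Oog1, Omt2a and Omt2b. The other 13 had a peak within 50 kb in at least 1 list, and these were Zp1, Zp3, Gdf9, Nlrp5, Tle6, Khdc3, Nlrp2, Nlrp9b, H1foo, Sohlh1, Ybx2, Oosp1 and Bcl2l10.

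Zp2, Padi6 and Npm2 had the most paternal peaks around them among the 42 genes. Within 500 kb of the start, and leaving out the peaks assigned to the gene itself, Zp2 had 42 paternal peaks under Ezh2m+/p+ and 50 under Ezh2m-/p+. Padi6 had 69 and 44, and Npm2 59 and 49. Between 2.15% and 4.54% of all protein-coding genes had as many. Across the oocyte genes with a paternal peak assigned the medians were 13 and 10, against 10 and 13 across all genes with one. Without one, the medians were 1.5 and 1 for oocyte genes and 2 and 3 for all genes. Sohlh2 and Plat, by contrast, had 5 and 4 other paternal peaks under Ezh2m+/p+, and 8 and 3 under Ezh2m-/p+. In the maternal lists the highest numbers were 11 in Ezh2m+/p+ zygotes, at Ddx4 and Gdf9, and 23 in Ezh2m-/p+ zygotes, at Npm2, where the Ezh2m+/p+ list had 1.

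**Figure D4:**
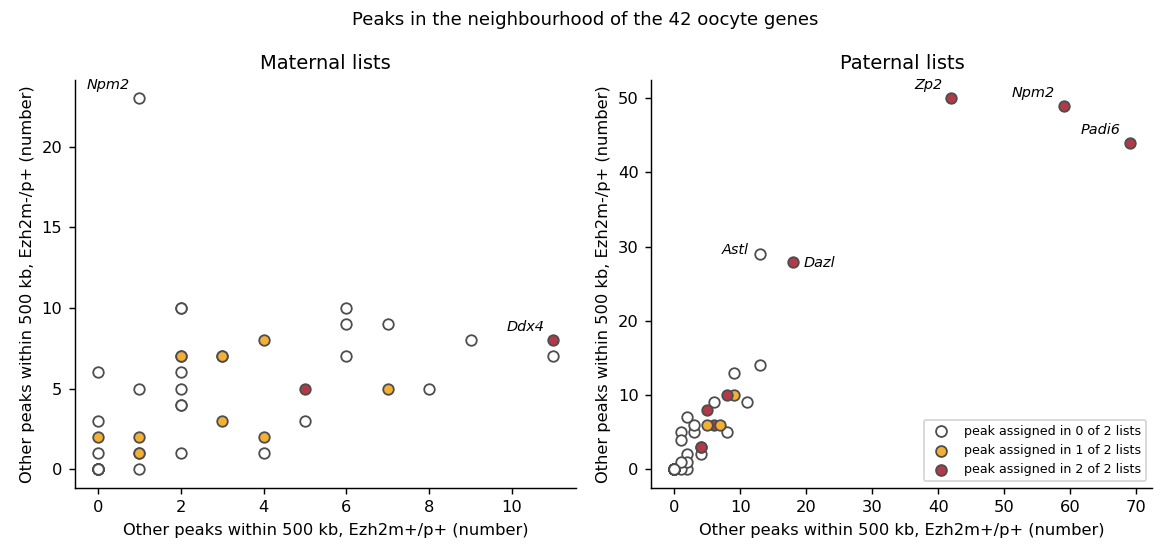
Number of peaks within 500 kb of the start of each of the 42 oocyte genes, leaving out those assigned to the gene, in Ezh2m+/p+ (horizontal) against Ezh2m-/p+ zygotes (vertical), for the maternal (left) and paternal lists (right). Colour gives the number of lists of that genome with a peak assigned to the gene. Padi6, Npm2 and Zp2 lie apart in the paternal panel (69 and 44, 59 and 49, 42 and 50 peaks).

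The placement of the peaks in genes was counted by the authors' annotation. In the paternal lists 9 of 20 Ezh2m+/p+ and 9 of 25 Ezh2m-/p+ peaks were annotated as promoter, within 3 kb of a start of any transcript, against 17.3% and 16.9% of all peaks. Introns held 4 and 2 peaks, against 28.2% and 27.3% of all. In the maternal lists 1 of 3 and 2 of 10 peaks were promoter peaks, against 15.8% and 16.5%. Peaks of 1 gene are neighbours of each other, and 6 of the 9 Ezh2m+/p+ paternal promoter peaks belonged to Zp2, Npm2 and Padi6. Median lengths were 1799 bp in the Ezh2m+/p+ paternal (all peaks 1799 bp) and 2199 bp in the Ezh2m-/p+ paternal list (all peaks 1999 bp).

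Of the paternal peaks, 14 of 20 in Ezh2m+/p+ (70.0%; all peaks 66.1%) and 11 of 25 in Ezh2m-/p+ zygotes (44.0%; all peaks 45.7%) overlapped a paternal peak of the other genotype. There were 15 overlapping pairs at Zp2, Padi6, Npm2, Sohlh2, Kit and Plat, and in 2 of them the Ezh2m-/p+ peak was assigned to a neighbour, Fgf17 at Npm2 and Padi4 at Padi6. In 11 of the 15 (73.3%) the fold ranked lower in its list in Ezh2m-/p+ than in Ezh2m+/p+ zygotes, against 49.3% of the 12640 overlapping paternal pairs of the whole lists. The pairs came from 14 Ezh2m+/p+ and 13 Ezh2m-/p+ peaks of 6 genes, so some peaks count in 2 pairs. The ranks hold many ties and come from lists of unequal length and 1 library each, and the count was not tested. The Ezh2m-/p+ peak was the longer in 10 pairs (66.7%; all pairs 68.4%). In the maternal genome 1 of 3 Ezh2m+/p+ (all peaks 9.47%) and 1 of 10 Ezh2m-/p+ peaks (all peaks 5.78%) overlapped, and these were the Fbxo43 peaks.

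**Figure D5:**
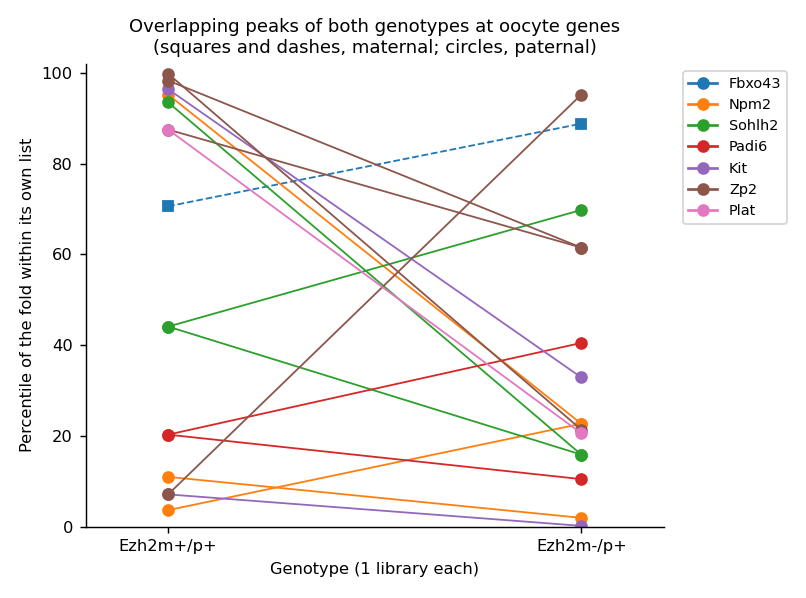
Percentile of the fold within its own list for overlapping peaks of both genotypes at oocyte genes, with 1 line per pair coloured by gene (circles and solid lines, 15 paternal pairs; squares and dashes, the maternal pair of Fbxo43). The paternal line falls from Ezh2m+/p+ to Ezh2m-/p+ in 11 pairs, as at the Zp2 start (99.8 to 21.4), and rises in the others; each genotype is 1 library.

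Among 30 further oocyte genes, 2 had a peak in the Ezh2m+/p+ maternal list (6.67%; all genes 14.7%) and 6 in each of the other 3 lists (all genes 20.4%, 21.2% and 23.9%). Gpr3, which encodes the receptor that keeps the oocyte in meiotic arrest, had a paternal peak over a start site in both genotypes, at chr4:133211001-133216199 in Ezh2m+/p+ (fold 19.6, percentile 30.5) and chr4:133211201-133217599 in Ezh2m-/p+ zygotes (fold 10.8, percentile 33.0). Dnmt1, the maintenance DNA methyltransferase, had an Ezh2m-/p+ maternal peak over a start, at chr9:20959401-20962199 (fold 42.8, percentile 94.9). Cdc25b, the phosphatase that releases meiotic arrest, had a maternal peak over a start in Ezh2m+/p+ zygotes (fold 5.36, percentile 15.9), and the Ezh2m-/p+ maternal peak lay 4327 bp from a start (fold 42.8, percentile 94.9).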

How the data were processed

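H3K27me2 was profiled by ULI-NChIP-seq, in which native chromatin of few cells is cut by micrococcal nuclease and precipitated with an antibody. Reads were trimmed by the authors with Trimmomatic 0.38 (per the submitters' processing notes) and mapped by Bowtie2 to mm10. Alignments of low mapping quality and Picard duplicates were dropped. SNPsplit gave reads to the C57BL/6 or PWK genome, and SICER called peaks in each against input, with no pooling. Peaks were filtered on length and fold and annotated by ChIPseeker. The deposited lists give each peak's position, in bp on mm10, and its fold, a ratio of H3K27me2 to input reads; the shortest peak was 999 bp and the lowest fold 5.00. A deposited coverage table holds, per chromosome, the fraction that reads covered, without a stated scaling. Of its 126 values, 42 belong to oocytes and were not used.

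Lists were assigned to genotypes by their labels. Members were matched by Entrez identifier to RefSeq GRCm38.p6 (41 by symbol, 1 by synonym), and starts are RefSeq gene starts. Every gene was accounted for; genes with a peak are described with all or their leading peaks. The members and lists were chosen with earlier results of these data known, and the covered share of a gene, the count of peaks within 500 kb, the overlapping pairs and the shares of all genes, peaks and windows beside overlaps, patterns and reduced lists were added after seeing the data. Overlap meant at least 1 bp. Python 3.11.15, numpy 2.4.6, pandas 2.3.3 and matplotlib 3.10.9 were used, and the interval functions were tested on simulated data. With 1 library per genotype no test was made. The parental lists carry no read counts, so depth per peak is unknown. Alternatives tried were peaks of fold above 10 or longer than 2000 bp, position in place of assignment, assigned peaks within 50 kb, lists of equal size (5744 peaks), autosomes only and other definitions of shared peaks and of the background.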

Additional observations from a re-analysis of the deposited data

How the results depend on the processing

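Of 68 recomputed values for 20 results, 45 stayed close to the reported value and 23 moved, where close meant within 1.5 times for a count, within the interquartile range of the folds for a median and within the Wilson interval for a share of all genes. With a length over 2000 bp the number of oocyte genes with a peak was 5 in the Ezh2m+/p+ paternal, 2 in the Ezh2m-/p+ maternal and 6 in the Ezh2m-/p+ paternal list, and the number of their peaks 7, 2 and 14; the Ezh2m+/p+ maternal list then also had 2 genes. With lists of equal size the paternal lists had 5 (Ezh2m+/p+) and 4 genes (Ezh2m-/p+), with 7 and 6 peaks. The maternal lists had 3 and 7 genes, with 3 and 7 peaks. In Ezh2m-/p+ zygotes the maternal number was then the higher, and whether this held for all genes was not examined. Ties in fold were kept in list order. A fold over 10 left 14 Ezh2m-/p+ paternal peaks. Counting peaks in the gene or within 3 kb of its start gave 5 Ezh2m+/p+ maternal peaks, and 6 Ezh2m-/p+ maternal genes with 6 peaks. When a peak had to overlap its counterpart, 1 maternal gene was shared between genotypes, and 0 genes between the parental genomes of Ezh2m+/p+ and 0 of Ezh2m-/p+ zygotes. Among genes with a peak in any list, the share of all genes was 32.2% and 44.7% in the Ezh2m+/p+ maternal and paternal lists and 46.5% and 52.5% in the Ezh2m-/p+ lists, since fewer genes were counted. The median Ezh2m+/p+ paternal fold was 120 for peaks over 2000 bp and 96.3 for the largest fold of each gene (36.1 as reported), and the Ezh2m-/p+ paternal median, within its interquartile range, was 9.36 and 63.0 (19.7 as reported). The causes of the other moves were not tested. No paired analysis was possible because each genotype has 1 library, and no library could be left out for the same reason. Counts of a few genes are set by single peaks, and a gene without a peak may lack variants or reads; neither was tested.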

Other observations

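Another germline set, 30 genes of male germ cells, was counted in the same way. A peak was assigned to 3 of these genes in the Ezh2m+/p+ maternal (10.0%; all genes 14.7%), 2 in the Ezh2m+/p+ paternal (6.67%; all genes 20.4%), 3 in the Ezh2m-/p+ maternal (10.0%; all genes 21.2%) and 3 in the Ezh2m-/p+ paternal list (10.0%; all genes 23.9%). The genes were Odf1, Spaca1 and Catsper3 in the Ezh2m+/p+ maternal, Acr and Catsper4 in the Ezh2m+/p+ paternal, Odf1, Dpy19l2 and H1fnt in the Ezh2m-/p+ maternal, and Acr, Catsper2 and Catsper4 in the Ezh2m-/p+ paternal list. Acr encodes acrosin, a protease of the sperm acrosome, and its paternal peaks began at the same base in both genotypes (chr15:89561801-89562999 in Ezh2m+/p+, fold 60.2, percentile 73.8, and chr15:89561801-89564199 in Ezh2m-/p+, fold 6.90, percentile 8.61). Catsper4 encodes a subunit of the sperm calcium channel, and its paternal peaks of 8599 bp in Ezh2m+/p+ (fold 13.5, percentile 24.1) and 7999 bp in Ezh2m-/p+ zygotes (fold 7.96, percentile 20.4) also overlapped. A second Ezh2m-/p+ paternal peak of Catsper4, at chr4:134223401-134224799, had a fold of 205 (percentile 98.6). The difference between the male germ cell genes and the oocyte genes was not tested.

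Folds repeated the same values within a list. In the Ezh2m+/p+ paternal list the 10 commonest folds accounted for 68.9% of all peaks and for 11 of the 20 peaks of oocyte genes, and in the Ezh2m-/p+ paternal list for 56.7% and for 15 of 25. The equal folds of Sohlh2, Ddx4, Dazl and Zp2 peaks (36.1) in the first list are of this kind.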
